A study of Mus musculus with 18 samples.

Results

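Obesity was compared with leanness in pancreatic islets of mice, across both obese models and both ages of the study together. The comparison took 16 of the 18 arrays of the series: 8 from obese islets and 8 from lean islets, in 8 groups of 2. The obese groups were C57BL/KsJ db/db mice and C57BL/6J ob/ob mice at 6 and at 16 weeks of age, and each had lean controls of its own strain and age. All mice came from colonies of the Garvan Institute and fed freely, and their islets were picked by hand before total RNA was hybridised to Affymetrix Mouse Gene ST arrays. Both mutations disable leptin signalling in the whole animal, ob/ob through loss of the hormone and db/db through loss of the long form of its receptor, so neither model isolates an action on the islet. Each strain at each age formed a block of 2 obese and 2 lean arrays. A code in the array titles differs between the strains but is the same for all arrays of a strain, so no block spans a pair of codes. The leading letter and the last number of the titles run in group order in both strains, lean before obese in each block. Their order cannot be told apart from obesity within a block, and the labels do not say what they stand for. The obesity term was fitted with the 4 blocks as separate means. Of the 22180 genes measured, 15526 were bright enough to be tested, and 4535 of these (29.2%) had an obese minus lean difference of 1 sign in all 4 blocks. These 4535 genes are the subject here: 2763 were higher in obese islets in every block (17.8% of genes tested) and 1772 were lower (11.4%).

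Islets are clusters of hormone cells, most of them beta cells, which release insulin when glucose rises. In obesity, tissues respond less to insulin, and beta cells make and secrete more of it and can multiply. Insulin and the other granule proteins enter the endoplasmic reticulum (ER) as they are made, are folded there, and pass through the Golgi into secretory granules. A heavy load of unfolded protein in the ER turns on the genes of chaperones and of the machinery that clears misfolded protein, which is called the unfolded protein response.

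The endocrine markers fixed for the check of the tissue were bright on all 16 arrays. On the log2 scale the insulin gene Ins2 ran from 11.60 to 12.20, the amylin gene Iapp between 12.01 and 12.74, the glucagon gene Gcg between 13.09 and 13.48, the somatostatin gene Sst between 12.97 and 13.44, and the pancreatic polypeptide gene Ppy between 12.28 and 13.12. The brightest single value on any array was 13.61. Ins1 has no cluster of its own and was not analysed here.

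Several arrays stood apart. The replicate numbers used here follow the order of deposit and are not in the labels. Lean KsJ replicate 2 of 16 weeks had the highest mean over the acinar list, the digestive enzymes of the exocrine pancreas, at 12.17, and correlated least with its partner (0.916 across clusters, against 0.960 to 0.980 in the other 7 groups). Markers of intestinal enterocytes averaged 10.11 on lean 6J replicate 2 of 6 weeks, 8.30 on db/db replicate 2 of 16 weeks and between 3.68 and 5.84 on the other arrays. The Y-linked gene Uty exceeded the X-inactivation transcript Xist on 2 of 8 obese arrays and 3 of 8 lean arrays. In the 16-week 6J block Xist exceeded Uty on every array. In each other block the 2 lean arrays differed in this and the 2 obese arrays did not, so the sexes were not balanced there. Uty was the higher in 6-week ob/ob islets and Xist in db/db islets of both ages. One ob/ob array of 6 weeks, replicate 2, lay near the lean arrays for many of the genes below. Leaving out that array gave 1295 higher and 790 lower calls, leaving out its partner gave 542 and 223, and leaving out lean KsJ replicate 2 of 16 weeks gave 1642 and 1316, against 1037 and 556 with all 16 arrays.

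With the blocks in the model, limma called 1638 genes at an adjusted p below 0.05, which was 10.6% of the genes tested: 1064 higher in obese islets (6.85%) and 574 lower (3.70%). Of these, 1593 (10.3%) also kept 1 sign in all 4 blocks, 1037 higher in obese islets (6.68%) and 556 lower (3.58%). These 1593 genes are meant below by called, risen or fallen. The counts of risen and fallen members of each list are to be read against these shares of 6.68% and 3.58%. Lists and members were chosen with earlier results of these data known, so no list count below is independent evidence. In 514 genes (3.31%) both obese arrays lay above both lean arrays in each of the 4 blocks, and in 170 genes (1.09%) below. All 8 obese arrays lay above all 8 lean arrays in 122 genes (0.786%) and below in 22 (0.142%). The median difference over all genes tested was 0.02 on the log2 scale, and 53.5% of them lay above 0. Their block medians were -0.02 and 0.18 in db/db islets of 6 and 16 weeks and -0.00 and -0.03 in ob/ob islets. Quantile normalization moved the split to 1007 higher and 912 lower calls, so that 52.5% of calls were higher in place of 65.1%.

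Single arrays moved these counts by more than 1.5 times. Besides the arrays above, the counts were 680 and 315 without db/db replicate 2 of 6 weeks, 671 and 263 or 661 and 276 without either lean 6J array of 16 weeks, and 647 and 282 without ob/ob replicate 1 of 16 weeks. The lower count alone moved so far without ob/ob replicate 2 of 16 weeks (296), either lean KsJ array of 6 weeks (368 and 345) and lean 6J replicate 1 of 6 weeks (349). Among blocks, leaving out the 16-week ob/ob block changed the counts most. Without it 57 genes were called higher and 9 lower, and 55 and 8 of these were among the calls from all arrays. Without the 6-week db/db block the counts were 423 and 130. They were 1144 and 1416 without the 16-week db/db block, and 715 and 343 without the 6-week ob/ob block. Without the 3 arrays with the strongest acinar or enterocyte signal they were 1491 and 1465, of which 910 and 520 were also called from all arrays.

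**Figure D1:**
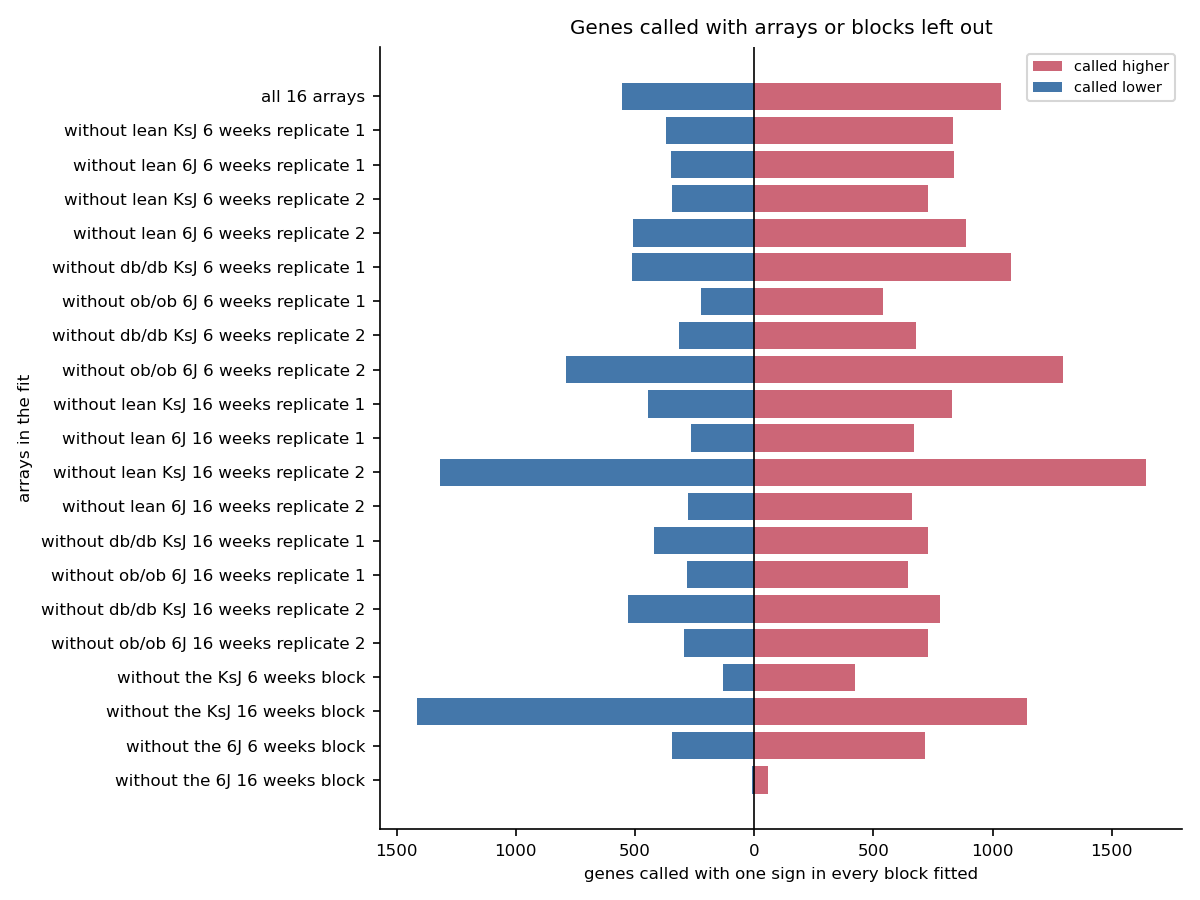
Genes called with 1 sign in every block fitted, counted to the right where higher in obese islets (red) and to the left where lower (blue), with all 16 arrays and with each array or block left out. The bars stand at 1037 and 556 genes with all arrays, at 57 and 9 without the 16-week ob/ob block, and at 1642 and 1316 without lean KsJ replicate 2 of 16 weeks. The most lower calls, 1416, came without the 16-week db/db block.

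No gene passed the limma F-test for an effect that differed between the 4 blocks at an adjusted p below 0.05, and 1351 genes (8.70% of those tested) had an unadjusted p below 0.05. The lowest adjusted p was 0.0689. This count rested on single arrays: it was 1970 without lean KsJ replicate 1 of 16 weeks and 211 without lean 6J replicate 1 of 6 weeks. The F-test therefore does not show that the effects were equal in the 4 blocks.

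The largest rise among genes with an assigned name was that of Aldh1a3, a retinaldehyde dehydrogenase known as a marker of beta cells that have lost their mature state. Its log2 signal was 4.01, 4.77 and 5.82 (lowest, median, highest) in lean islets and 5.43, 10.30 and 10.94 in obese islets. The obese arrays were high except ob/ob replicate 2 of 6 weeks, the 1 array that overlapped the lean range. The difference was 4.59 ± 0.63 (SE, 8 obese and 8 lean arrays, as throughout; 24.1-fold, adjusted p = 0.0021), and by block it was 3.13 and 6.22 in db/db islets of 6 and 16 weeks and 3.24 and 5.77 in ob/ob islets.

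Serpina7, which encodes the thyroxine-binding globulin, lay at 4.55, 6.34 and 7.04 in lean islets and at 7.02, 10.55 and 10.91 in obese islets. The ranges met at the lowest obese array, and the difference was 3.44 ± 0.52 (adjusted p = 0.00267). Dapl1, a gene named for its likeness to a death-associated protein, rose from 6.62, 8.24 and 9.04 to 9.51, 11.01 and 11.72. Here all 8 obese arrays exceeded all 8 lean arrays, with a difference of 2.73 ± 0.34 (adjusted p = 0.00162) and block differences between 1.95 and 3.26.

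Vgf, a granule protein that is cut into secreted peptides, lay at 5.22, 6.26 and 6.55 in lean islets and 6.49, 8.57 and 9.50 in obese islets. Only the lowest obese array fell inside the lean range, and the difference was 2.43 ± 0.32 (adjusted p = 0.00183). Its block differences were alike in size, 2.59 and 2.92 in db/db islets and 2.09 and 2.11 in ob/ob islets. Peptide hormones and neuropeptides were also among the 12 largest rises of genes with an assigned name. Cholecystokinin (Cck) rose by 2.88 ± 0.65 and prodynorphin (Pdyn), the precursor of opioid peptides, by 2.09 ± 0.35. The Cck rise was uneven, with 5.42 in 16-week db/db islets and 0.43 in 6-week ob/ob islets. In that last block Cck read 7.66 and 4.26 on the ob/ob arrays. It read 4.38 and 6.68 on the lean arrays, the higher on replicate 2, which had the strongest enterocyte signal. The gastrin gene Gast rose by 1.47 ± 0.36 (adjusted p = 0.0214), most in 16-week db/db islets at 3.18.

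The other large rises had varied roles. Gucy2c, the membrane guanylate cyclase that is the receptor of the gut peptides guanylin and uroguanylin, rose by 2.70 ± 0.44, and Aass, an enzyme of lysine breakdown, by 2.69 ± 0.58. Gucy2c read 9.73 on lean 6J replicate 2 of 6 weeks, above the 8.83 of ob/ob replicate 2 of that age. Aass read 8.13 on lean KsJ replicate 2 of 16 weeks, and its obese arrays read 4.85 to 8.35. Both obese arrays exceeded both lean arrays in 2 of 4 blocks for Aass, and its 16-week db/db difference was 1.14. C1qtnf1, a secreted protein of the C1q and TNF related family, rose by 2.72 ± 0.36. Csn3, the milk protein kappa-casein, rose by 2.36 ± 0.48 from a lean mean of 2.30 that lay under the brightness cutoff of 2.99. Ankrd34b rose by 2.09 ± 0.28.

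Among the rises with the smallest p-values, Mt3, a metallothionein that binds zinc, lay at 4.54, 5.09 and 5.35 in lean islets and 5.82, 7.07 and 7.32 in obese islets. Its groups did not overlap, and the difference was 1.80 ± 0.20 (adjusted p = 0.00162). Map3k19, a protein kinase, and Osgin1, a gene induced by oxidative stress, also had groups without overlap, with differences of 1.92 ± 0.22 and 1.28 ± 0.15. Hapln4, a protein that links hyaluronan to proteoglycans, rose by 1.55 ± 0.19.

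**Figure D2:**
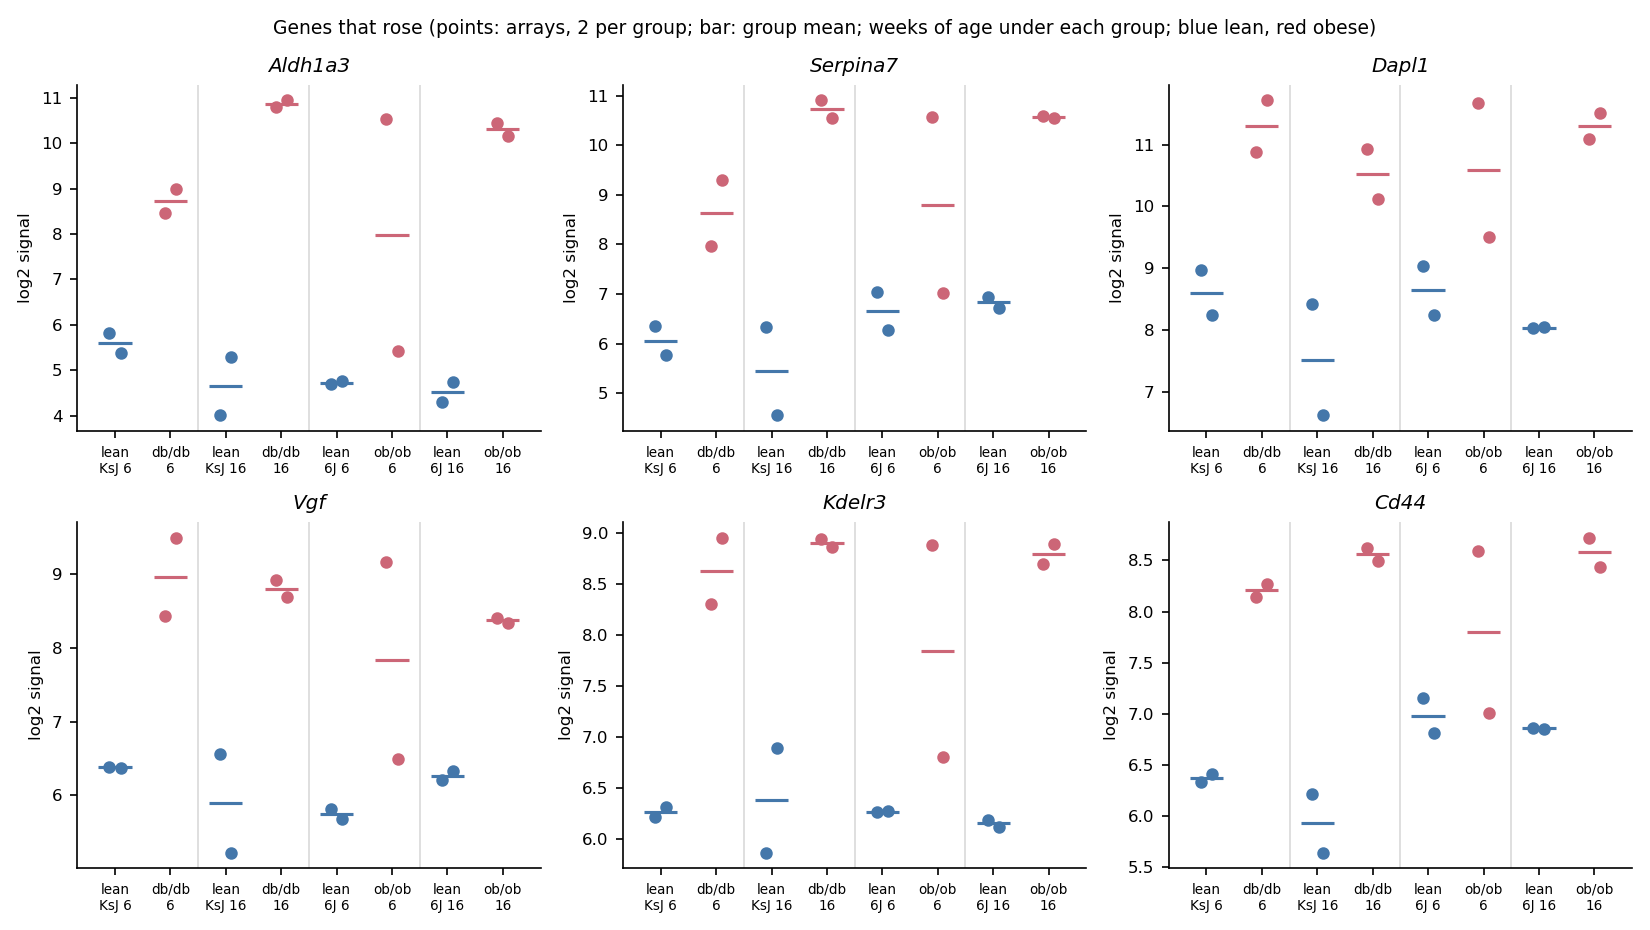
Log2 signal (vertical axis) of 6 genes that rose, on each of the 16 arrays by group and age in weeks, with lean islets in blue and obese islets in red, and a bar at each group mean. The 2 arrays of 6-week ob/ob islets lie apart in each panel, and for Aldh1a3 the lower of them (5.43) falls within the lean range of 4.01 to 5.82.

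The list of beta-cell stress markers held Aldh1a3, Serpina7, Cck, Gast, Gucy2c, Csn3, the hyaluronan receptor Cd44 and other genes known from failing or dedifferentiated beta cells. It was chosen with earlier results of these arrays known, so its count is no independent evidence. Of 14 members tested, 8 rose and 1 fell, and the median difference was 1.61. Without the 16-week ob/ob block 2 rose and none fell. Cd44 lay at 5.64, 6.61 and 7.15 in lean islets and 7.01, 8.47 and 8.72 in obese islets, a difference of 1.75 ± 0.24 (adjusted p = 0.0021), with 1 obese array inside the lean range. Tnfrsf11b, the decoy receptor osteoprotegerin, rose by 2.02 ± 0.33. The 1 member that fell was Nnat, or neuronatin, a small membrane protein of the ER. In bulk islets a change in the number of cells of a type and a change in RNA per cell cannot be told apart, here and below.

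Larger still were the differences of 2 predicted genes beside the trypsinogen genes, named here after their values were seen. 1810009J06Rik lay at 3.04, 3.62 and 6.18 in lean islets and 4.16, 9.45 and 12.62 in obese islets, a difference of 5.31 ± 0.68 (adjusted p = 0.00183). Gm2663 went from 2.46, 4.04 and 5.77 to 4.11, 9.12 and 12.43, a difference of 4.93 ± 0.68 (adjusted p = 0.0021). Both obese arrays exceeded both lean arrays in each of the 4 blocks in either gene. The other trypsin genes of that stretch were not called, with differences of 1.30 for Prss1 (adjusted p = 0.118), 0.73 for Try4 and 0.34 for Prss2. All 9 genes tested of the stretch lay above 0, with a median of 0.87. Without lean KsJ replicate 2 of 16 weeks 4 of them were called. With the acinar and enterocyte list means as covariates 5 were, and with any 1 block left out 2 were. The acinar list as a whole had no called member among 17, its mean ran from 7.22 to 12.17 in lean islets and from 7.998 to 10.66 in obese islets, and the chymotrypsin gene Ctrc differed by -0.00 ± 0.51. Trypsinogen genes are near-identical copies, so signal may be shared between their probes, and which copy was measured was not tested.

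Of 24 genes of protein folding in the ER tested, 10 rose (41.7%, against 6.68% of all genes tested) and none fell. Of the 24, 20 lay above 0 (53.5% of all genes tested did), with a median difference of 0.30 against 0.02. The largest rise was that of Derl3, a part of the channel that takes misfolded proteins out of the ER, at 1.86 ± 0.39 (adjusted p = 0.00966). Creld2, an ER chaperone, lay at 9.56, 9.996 and 10.39 in lean islets and 9.9997, 11.52 and 11.86 in obese islets, a difference of 1.39 ± 0.22 (adjusted p = 0.00287). Sdf2l1, a partner of the chaperone BiP, went from 9.34, 9.95 and 10.49 to 10.16, 11.13 and 11.51, a difference of 1.11 ± 0.19. In each of these genes the 1 obese array within the lean range was ob/ob replicate 2 of 6 weeks, and both obese arrays exceeded both lean arrays in 3 of 4 blocks.

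Syvn1, the ubiquitin ligase that marks misfolded ER proteins, rose by less but with groups that did not overlap, from 7.77, 8.06 and 8.44 to 8.46, 8.64 and 8.95 (difference 0.60 ± 0.08, adjusted p = 0.0021). The co-chaperones Dnajb9, Dnajc3 and Dnajb11 rose by 0.65, 0.64 and 0.78, the secreted ER factor Manf by 0.66, the disulfide isomerase Pdia6 by 0.48 and the chaperone Hyou1 by 0.48. The gene of BiP itself, Hspa5, was not called, at 0.28 ± 0.11 (adjusted p = 0.138). The sensor gene Atf6 and the transcription factor gene Xbp1 differed by -0.20 and -0.07 and were not called, and the array does not measure the splicing of Xbp1.

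**Figure D3:**
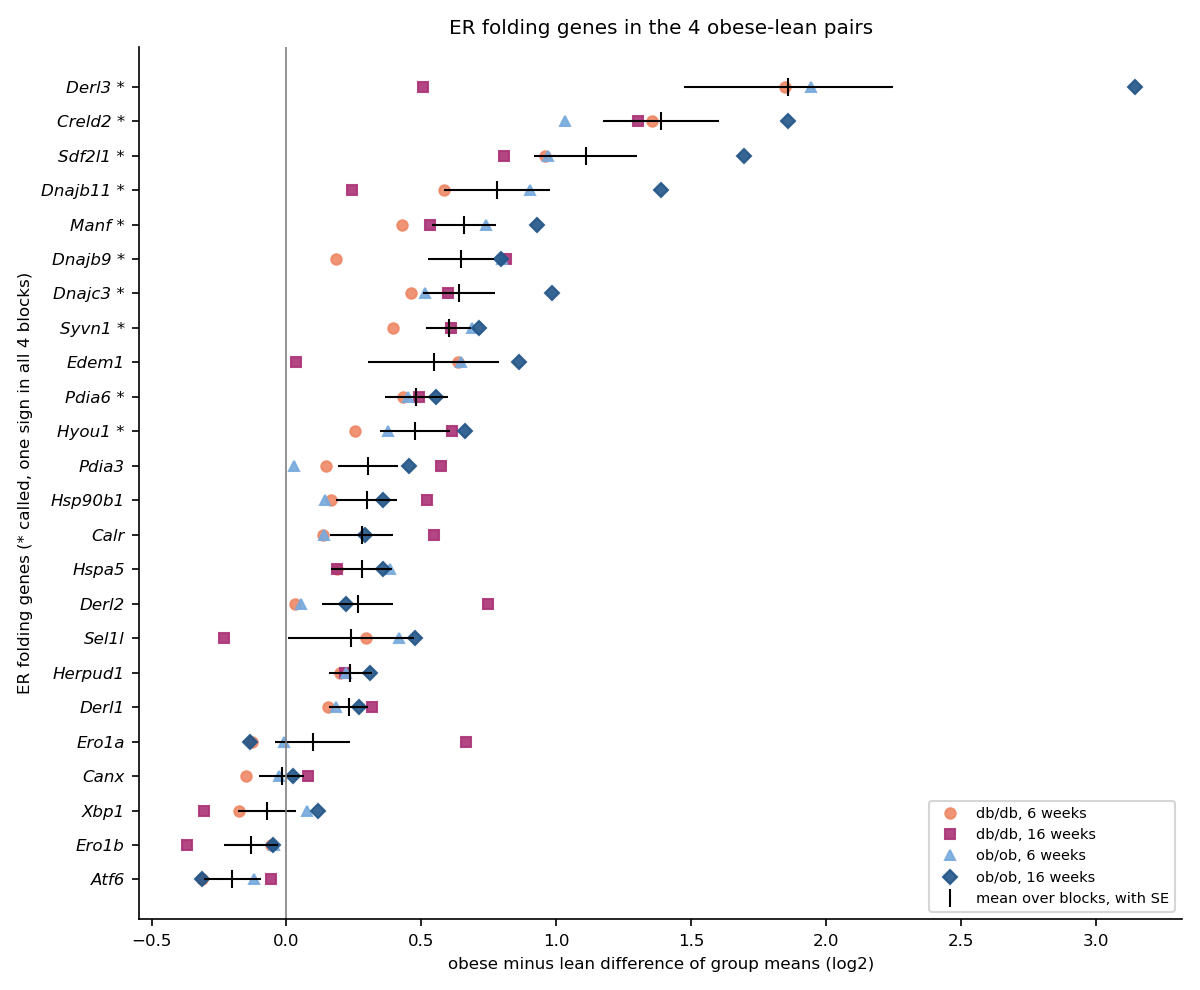
Obese minus lean differences of group means (log2, horizontal axis) of the 24 ER folding genes in each of the 4 blocks, with the difference over all blocks and its standard error in black, and an asterisk on the 10 genes called. Derl3 spreads most between blocks around its 1.86, whereas Pdia6 lies close to 0.48 in all 4.

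The promoters of several of these genes hold the ER stress response element, the site through which the unfolded protein response acts, and 3 risen members that hold it are shown. The element searched was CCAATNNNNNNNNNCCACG on both strands, in the 250 bases before each RefSeq start (build GRCm38.p6). It was present in 19 of 12135 promoters of genes tested (0.157%), in 10 of 20 promoters of the list, and in 5 of the 8 promoters of its risen members. The other 5 members that hold it, Calr, Canx, Ero1b, Hsp90b1 and Hspa5, were not called. The element is in capitals, and in Creld2 and Derl3 it runs on the opposite strand. The promoter of Hspa5, which was not called, is given for comparison. A match says only that these letters are present.
Creld2, chr15:88819396-88819645, plus strand: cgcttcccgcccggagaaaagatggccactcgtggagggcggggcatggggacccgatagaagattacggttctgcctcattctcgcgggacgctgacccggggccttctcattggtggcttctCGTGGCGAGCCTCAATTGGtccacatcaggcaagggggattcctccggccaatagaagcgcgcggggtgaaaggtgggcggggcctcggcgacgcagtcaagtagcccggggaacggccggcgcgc
Derl3, chr10:75893148-75893397, plus strand: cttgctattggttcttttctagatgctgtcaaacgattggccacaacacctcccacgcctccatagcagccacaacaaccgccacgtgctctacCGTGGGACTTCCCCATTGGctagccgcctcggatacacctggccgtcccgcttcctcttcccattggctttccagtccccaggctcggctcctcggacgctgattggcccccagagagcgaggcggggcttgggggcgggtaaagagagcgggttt
Syvn1, chr19:6046326-6046575, plus strand: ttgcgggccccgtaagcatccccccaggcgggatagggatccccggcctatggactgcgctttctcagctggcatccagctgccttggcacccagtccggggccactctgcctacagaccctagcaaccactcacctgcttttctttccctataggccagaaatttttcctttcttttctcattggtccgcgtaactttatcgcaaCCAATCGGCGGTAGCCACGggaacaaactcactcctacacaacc
Hspa5, chr2:34771840-34772089, plus strand: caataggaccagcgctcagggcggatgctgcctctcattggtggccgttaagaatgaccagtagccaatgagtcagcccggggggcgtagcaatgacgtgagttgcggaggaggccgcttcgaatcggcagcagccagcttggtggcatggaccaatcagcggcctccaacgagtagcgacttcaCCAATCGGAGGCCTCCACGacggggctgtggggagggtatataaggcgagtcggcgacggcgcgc

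Genes of the steps before and after folding were grouped in 3 lists written after the values were seen, which carry no test of their own. Of 25 genes for import into the ER, 22 lay above 0, against 53.5% of all genes tested, and the median was 0.37. None fell, and 12 rose (48.0%). They included Srprb of the signal recognition receptor (0.82 ± 0.12), Sec11c of the signal peptidase (0.97 ± 0.19), and the translocon-associated subunits Ssr1, Ssr2, Ssr3 and Ssr4 (0.37 to 0.80). Ssr3 went from 9.40, 9.67 and 9.80 in lean islets to 9.83, 10.40 and 10.51 in obese islets, with no overlap.

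Attachment of sugar chains to asparagine, which marks proteins for folding control, had 22 of 45 genes risen and none fallen, with a median of 0.41. Among them were genes that build the sugar chain on its lipid carrier, Alg3 (1.02 ± 0.15), Alg8 (1.08 ± 0.17) and Alg5 (0.92 ± 0.17). Alg3 lay at 8.23, 8.87 and 9.09 in lean islets and 9.25, 9.86 and 10.45 in obese islets, again with no overlap. Subunits of the enzyme that transfers the chain rose too, Ostc by 0.71, Rpn1 by 0.59, Rpn2 by 0.47 and Ddost by 0.41, as did the glucosidases that trim it, Mogs by 0.96 and Prkcsh by 1.01.

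In transport between ER and Golgi, 14 of 38 genes rose and none fell, with a median of 0.26. Kdelr3, a receptor that returns escaped chaperones to the ER, was among the 12 largest rises of genes with an assigned name. It went from 5.87, 6.24 and 6.89 in lean islets to 6.80, 8.87 and 8.95 in obese islets. The difference was 2.27 ± 0.26 (adjusted p = 0.00162), and 1 obese array lay within the lean range. Its relatives rose by less, Kdelr1 by 0.43 ± 0.09 and Kdelr2 by 0.36 ± 0.10. The cargo carriers Tmed3 and Tmed9 rose by 0.999 and 0.58, and the vesicle coat protein Sec13 by 0.47.

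Exocrine cells also have a dense ER. The acinar list median was -0.72 and -0.20 in db/db islets of 6 and 16 weeks and 0.89 and 1.23 in ob/ob islets. The ER folding list median in the same order was 0.19 and 0.51, and 0.38 and 0.47. Adjusted for the acinar and enterocyte list means, the folding, import, glycosylation and transport lists had 10, 13, 21 and 14 risen members. The part of exocrine RNA in these rises was not tested. Without the 16-week ob/ob block they had 1, 0, 0 and 1, and without the 6-week db/db block 6, 6, 12 and 6. Of 21 genes of the ATF4 branch of the stress response, which handles amino acid supply and translation, none rose and 1 fell, Atf5 by 0.65 on the log2 scale (adjusted p = 0.0326), and the list median was 0.07.

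Genes of the secretory granule rose more often than they fell, 6 against 1 of 21, with a median of 0.29. These shares were 28.6% and 4.76%, against 6.68% and 3.58% of all genes tested. Ptprn, a granule membrane protein and islet autoantigen, lay at 10.89, 11.86 and 11.96 in lean islets and 11.98, 12.40 and 12.57 in obese islets, without overlap (difference 0.66 ± 0.14, adjusted p = 0.0113). Pam, which amidates peptides, rose by 0.59, the granins Chgb and Scg2 by 0.54 and 0.36, and Rab3a, a GTPase of vesicle docking, by 0.37. The fusion protein gene Stx1a went the other way, at -0.56 ± 0.15. The mean of the granule list was lowest on lean KsJ replicate 2 of 16 weeks (9.39), and without that array 8 members rose and 1 fell. Without the 6-week db/db block, and without the 16-week ob/ob block, 1 member rose and none fell.

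Among 22 beta-cell identity genes none rose and 5 fell (22.7%, against 3.58% of all genes tested), with a median of -0.17. The list median was -0.26 and 0.16 in db/db islets of 6 and 16 weeks and -0.16 and -0.35 in ob/ob islets. In 16-week db/db islets it thus lay above 0, near the 0.18 of all genes tested there. Slc2a2, the glucose transporter of mouse beta cells, lay at 11.83, 12.72 and 12.86 in lean islets and 11.03, 11.83 and 12.70 in obese islets. The obese arrays were lower in each block, although the ranges overlapped across blocks, and the difference was -0.81 ± 0.18 (adjusted p = 0.0117). Slc30a8, the zinc transporter of insulin granules, differed by -0.60 ± 0.14 (adjusted p = 0.0149), with block differences between -0.85 and -0.48. Sytl4, which tethers granules to the membrane, and Trpm5, a calcium-activated cation channel, differed by -0.88 and -1.11, and the transcription factor gene Foxa2 by -0.29.

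The insulin, amylin, glucagon and somatostatin genes were not called. Ins2 differed by 0.13 ± 0.08 (adjusted p = 0.338), Iapp by 0.23 ± 0.09, Gcg by -0.07 ± 0.08 and Sst by -0.07 ± 0.09. Their values lay near the top of the signal range, and whether the array compresses differences there was not tested. Mafa, a transcription factor of mature beta cells, differed by -0.57 ± 0.18 (adjusted p = 0.0593), with all 4 blocks below 0 and -1.26 in 16-week db/db islets. Ucn3, another maturity marker, differed by -0.21 ± 0.12 and was not called. Without lean KsJ replicate 2 of 16 weeks, on which the identity list mean was lowest (9.17), 9 identity genes fell. Without the 6-week db/db block 3 fell, and without the 16-week ob/ob block none did. Of 13 genes of the other endocrine cells, 4 fell and none rose: Slc7a2, an amino acid transporter, by 0.68, the transcription factor gene Pou3f4 by 0.75, the retinol carrier Rbp4 by 0.80 and the hormone gene Ppy by 0.32 on the log2 scale. Without those blocks in turn, 1 and 0 of these 13 genes fell. The median of the 13 was -0.12 and 0.01 in db/db islets of 6 and 16 weeks and -0.19 and -0.72 in ob/ob islets.

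The largest falls reached further than these lists. Cyp4f39, a fatty acid hydroxylase, lay at 6.33, 7.72 and 8.71 in lean islets and 3.98, 5.53 and 8.25 in obese islets, a difference of -2.06 ± 0.41 (adjusted p = 0.00773). The highest obese array was again ob/ob replicate 2 of 6 weeks. Cox6a2, a subunit of cytochrome oxidase typical of muscle, went from 9.31, 9.93 and 10.65 to 6.71, 8.45 and 9.88, a difference of -1.60 ± 0.31. That fall was -3.05 in 16-week db/db islets and between -1.50 and -0.69 in the other blocks.

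Other large falls had varied roles. The endolysosomal channel gene Mcoln3 differed by -1.73 ± 0.28, Stxbp5l, a brake on vesicle fusion, by -1.62 ± 0.26, and the potassium channel subunit gene Kcng3 by -1.55 ± 0.24. Mlph, which links Rab27a vesicles to actin, differed by -1.39 ± 0.34. The imprinted genes Nnat and Zim1 differed by -1.58 ± 0.32 and -1.44 ± 0.21, and the adhesion gene Cdh7 by -1.54 ± 0.25. Lpl, the lipase that frees fatty acids from lipoproteins, went from 8.59, 9.39 and 9.66 to 7.02, 7.75 and 9.27, a difference of -1.38 ± 0.26. Carmil3 and Epb41l4a, genes of the cytoskeleton, each differed by -1.45.

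The smallest p-values among falls were those of Lingo3 (-1.14 ± 0.14), the attractin relative Atrnl1 (-0.90 ± 0.12), the microRNA gene Mir1192 (-0.89 ± 0.12), the chemokine gene Ccl27a (-0.98 ± 0.13) and Insyn2a (-1.13 ± 0.16). Insyn2a was the 1 among these 5 with groups that did not overlap, 4.32 to 5.31 in lean islets and 3.29 to 4.06 in obese islets. Lingo3, Mir1192 and Insyn2a were dim throughout, with all values of at most 5.31.

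**Figure D4:**
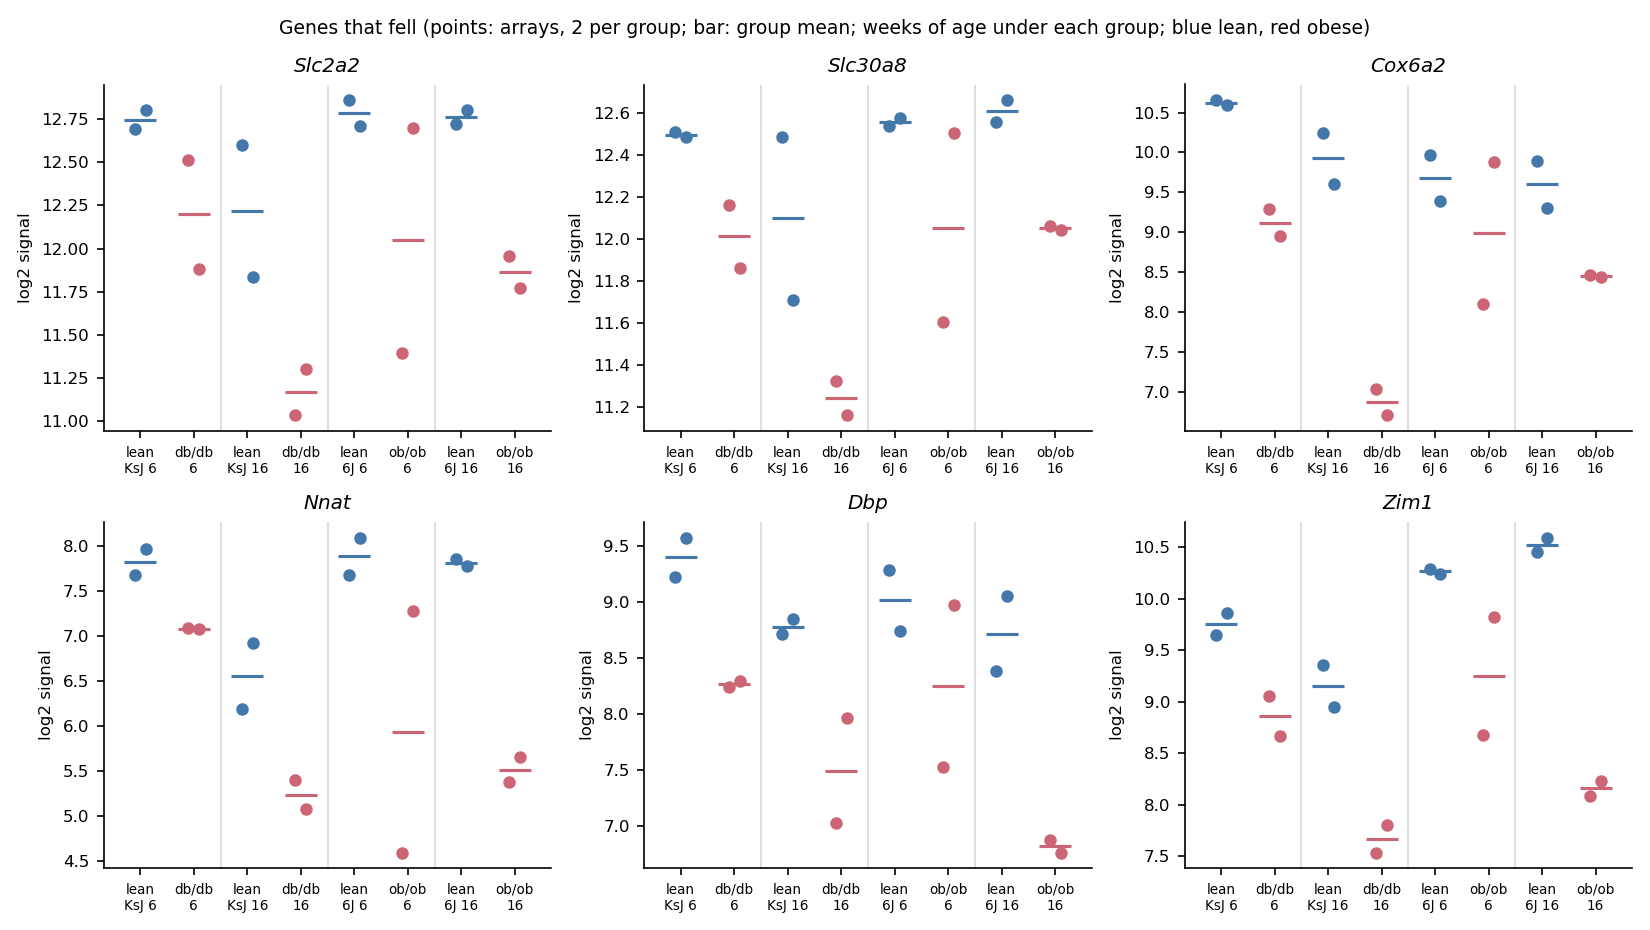
Log2 signal (vertical axis) of 6 genes that fell, on each of the 16 arrays by group and age in weeks, with lean islets in blue, obese islets in red and a bar at each group mean. The deepest fall of Cox6a2 is in 16-week db/db islets (-3.05), and that of Dbp is in 16-week ob/ob islets (-1.90).

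All 28 cell-cycle genes tested lay above 0 (53.5% of all genes tested did), with a median of 0.42. The test called 5 of them (17.9%, against 6.68% risen of all genes tested). These were genes of entry into DNA synthesis: E2f1, a transcription factor, lay at 6.27, 6.54 and 6.92 in lean islets and 6.85, 7.18 and 7.60 in obese islets (difference 0.58 ± 0.11, adjusted p = 0.00574). Cyclin E1 (Ccne1) rose by 0.66, the helicase subunits Mcm2 and Mcm5 by 0.81 and 1.11, and the ribonucleotide reductase subunit Rrm2 by 0.82. The division marker Mki67 differed by 0.68 ± 0.26 and was not called (adjusted p = 0.107). Block medians were 0.50 and 0.11 in db/db islets of 6 and 16 weeks and 0.28 and 1.01 in ob/ob islets. The 0.11 lay below the 0.18 of all genes tested in that block. Without the 16-week ob/ob block none was called, 24 of 28 lay above 0 and the median was 0.26, and without the 6-week db/db block 1 was called. Genes of a list are not independent of each other.

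Among 24 growth-signalling genes 2 rose and 3 fell, and none was called without the 16-week ob/ob block. The risen share, 8.33%, was near the 6.68% of all genes tested, and the fallen share was 12.5% against 3.58%. The cell-cycle inhibitor genes Cdkn1a and Cdkn2a rose by 0.71 ± 0.19 and 0.40 ± 0.09. Irs1, which carries the signal of the insulin receptor, lay at 5.91, 6.26 and 6.89 in lean islets and 4.95, 5.32 and 6.17 in obese islets, a difference of -0.83 ± 0.17 (adjusted p = 0.00903). Stat5b and Grb10, which act in cytokine and insulin signalling, differed by -0.41 and -0.59. The leptin receptor gene Lepr lay at 2.51 to 4.14 on all arrays and differed by 0.02 ± 0.22, and its single value does not separate the long form that db/db mice lack. Socs2, a target of cytokine signalling, differed by -0.51 ± 0.26 and was not called.

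The circadian clock list had the largest share of fallen members of all lists, 7 of 15, with 1 risen and a median of -0.42. That share was 46.7%, against 3.58% of all genes tested. By block the median was -0.55 and -0.07 in db/db islets of 6 and 16 weeks and -0.28 and -0.59 in ob/ob islets. The clock is a loop in which Clock and its partner turn on Per, Cry and Nr1d genes, whose products then repress it. The output factor Dbp lay at 8.39, 8.95 and 9.58 in lean islets and 6.77, 7.75 and 8.97 in obese islets, a difference of -1.27 ± 0.22 (adjusted p = 0.00446). Its obese arrays were below both lean arrays in 3 of 4 blocks. Per3 differed by -1.02 ± 0.23, the repressor genes Nr1d1 and Nr1d2 both by -0.81, Ciart by -0.84, Tef by -0.66 and Clock by -0.29.

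Nfil3, a repressor that acts against Dbp on shared sites, moved the other way, from 5.53, 6.53 and 6.78 to 7.07, 7.25 and 7.46 with no overlap (difference 0.77 ± 0.14, adjusted p = 0.00467). Arntl, Npas2 and Cry1 lay above 0 at 0.38, 0.76 and 0.30 and were not called. Without the 16-week ob/ob block no clock gene was called, and without the 6-week db/db block 1 rose and 3 fell. The hour at which islets were taken is not given in the sources used here, and its part in the result was not tested.

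The E-box CACGTG, through which Clock acts, was present in the 250 bases before the start of 5 of 15 clock genes and of 1119 of 12135 genes tested (9.22%). The motif reads the same on both strands. Ciart and Tef had it among the 7 that fell. The promoter of Ciart is shown because it holds 3 copies, in capitals.
Ciart, chr3:95882229-95882478, minus strand: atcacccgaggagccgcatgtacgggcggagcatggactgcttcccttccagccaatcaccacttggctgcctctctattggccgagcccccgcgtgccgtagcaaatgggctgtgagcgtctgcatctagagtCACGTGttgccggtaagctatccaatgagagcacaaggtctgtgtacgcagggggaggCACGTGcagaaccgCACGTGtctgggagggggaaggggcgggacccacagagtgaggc

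MicroRNA genes of the imprinted Dlk1-Dio3 stretch on chromosome 12 were grouped after the values were seen. Of 30 tested, 8 fell (26.7%, against 3.58% of all genes tested) and none rose. The median was -0.57, with 27 below 0 and 3 above, where 53.5% of all genes tested lay. Among 127 microRNA genes elsewhere 1 rose and 9 fell, with a median of -0.08. Mir377 lay at 3.17, 4.77 and 5.15 in lean islets and 2.30, 3.24 and 4.97 in obese islets, a difference of -1.30 ± 0.27 (adjusted p = 0.00867). Mir323 and Mir380 differed by -1.22 ± 0.30 and -0.95 ± 0.20. The values are dim, and the array reads the hairpin region rather than a mature arm. Mature sequences of 3 fallen genes, from RefSeq on GRCm38.p6, are shown with the seed (bases 2 to 8) in capitals, because the seed sets which targets a microRNA can pair with. No seed is shared among the mature sequences of the 8 fallen genes.
mmu-miR-377-3p: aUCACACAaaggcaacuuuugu
mmu-miR-377-5p: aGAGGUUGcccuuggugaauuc
mmu-miR-323-3p: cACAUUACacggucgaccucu
mmu-miR-323-5p: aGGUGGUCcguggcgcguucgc
mmu-miR-380-3p: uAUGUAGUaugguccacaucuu
mmu-miR-380-5p: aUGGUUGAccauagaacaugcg
Without the 16-week ob/ob block, and without the 6-week db/db block, none of the 30 was called.

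Of 20 antioxidant genes 4 rose and 3 fell, and without the 16-week ob/ob block 2 rose and none fell. Sod3, the superoxide dismutase outside the cell, went from 4.54, 5.06 and 5.28 to 5.32, 7.05 and 7.79, with no overlap (difference 1.86 ± 0.26, adjusted p = 0.0021). Osgin1, Srxn1 and Sod1 rose by 1.28, 0.48 and 0.37, whereas the quinone reductase gene Nqo1 and the metallothionein genes Mt1 and Mt2 differed by -0.86, -0.70 and -0.85. Of 16 immediate-early genes, which respond fast to stimulation, Nr4a2 alone was called, at 1.09 ± 0.15 (adjusted p = 0.0021).

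Metabolic lists had few members called, to be set against 6.68% risen and 3.58% fallen of all genes tested. Fatty acid handling had 1 risen and 2 fallen of 23, the carrier Fabp5 at 1.17 ± 0.34 against Lpl and the kinase gene Pdk4 at -1.06 ± 0.28. Glycolysis and hypoxia had 1 and 1 of 19, Pgk1 at 0.52 and the vessel growth factor gene Vegfa at -0.49. In the pair of factors that sense glucose products, Mlx rose by 0.36 ± 0.07 and its partner Mlxipl, which encodes ChREBP, differed by -0.55 ± 0.14. Their classical target Txnip differed by 0.49 ± 0.24 and was not called, at 1.64 in 16-week db/db islets and -0.26 in ob/ob islets of that age. Sterol synthesis had 1 member risen of 19, Dhcr7, and the respiratory chain 1 risen, Ndufa4, and 1 fallen, Cox6a2, of 21. These counts moved with the arrays used. Without lean KsJ replicate 2 of 16 weeks 4 sterol genes fell. Without the 3 arrays with strong acinar or enterocyte signal 7 respiratory genes rose. Without the 16-week ob/ob block none of either list was called. None of 13 genes that beta cells normally keep silent was called.

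The vascular list had 3 risen of 14 and a median of 0.30: Plvap, of the openings of fenestrated capillaries, by 0.61 ± 0.12, the pericyte gene Rgs5 by 0.61 ± 0.16 and the endothelial receptor gene Eng by 0.57 ± 0.16. Its mean ran from 6.04 to 7.24 in lean islets and 6.95 to 7.32 in obese islets, lowest on lean KsJ replicate 2 of 16 weeks, and 3 members were called without that array too. Without the 16-week ob/ob block none was called, and without the 6-week db/db block 1 was. Matrix and stellate genes had 2 risen of 19 (Mgp and Thbs1), macrophage genes 1 of 18 (C1qa) and lymphocyte genes 1 fallen of 7 (Cd79a). The matrix and macrophage shares, 10.5% and 5.56%, lay near the 6.68% risen of all genes tested. Their medians were uneven between blocks: the matrix list stood at 1.04 and the macrophage list at 1.15 in 16-week db/db islets, and at -0.20 and -0.29 in 6-week ob/ob islets. The collagen gene Col1a1 and the macrophage gene Cd68 differed by 0.53 ± 0.40 and 0.34 ± 0.28 and were not called. No member of the acinar, enterocyte, goblet, inflammation or sex-linked lists was called with 1 sign.

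**Figure D5:**
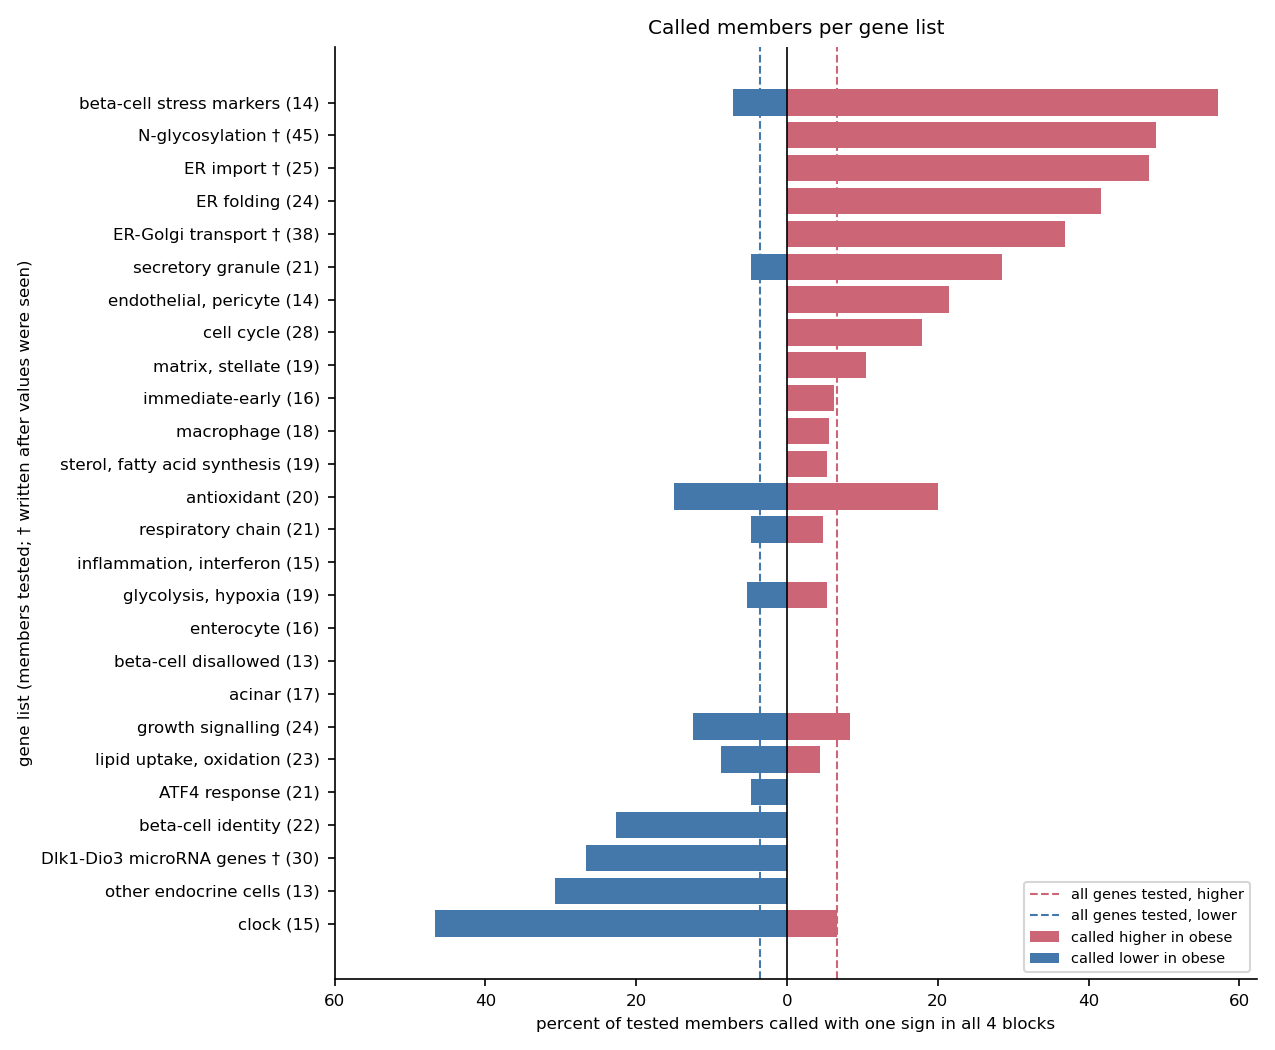
Percent of tested members of each gene list that were called higher (red, right) or lower (blue, left) with 1 sign in all 4 blocks, with dashed lines at the share of all genes tested (6.68% higher, 3.58% lower). Lists marked with a dagger were written after values were seen, and the others with earlier results of these data known. Lists with fewer than 10 tested members, and microRNAs outside the Dlk1-Dio3 stretch, are not drawn.

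The rule of 1 sign was narrow for some genes. Just inside it were Pabpc1l2b, whose smallest block difference was 0.0027 in 16-week ob/ob islets, and B3galt1 with 0.0053 in 6-week db/db islets. Just outside, and so not counted, were Srebf2 and Washc2, which were lower in 3 blocks and level in 16-week db/db islets. Of the 16 fits that left out 1 array, the limma adjusted p stayed below 0.05 in 2 for Pabpc1l2b and in 3 for Stat5b. It did so in 4 for Fabp5 and in 5 each for Ppy, Thbs1, Ndufa4 and Epb41l4a. The number was 6 each for Eng and C1qa, and 7 each for Atf5, Cdkn1a and the duct gene Krt7. In all, 45 genes were called by limma without 1 sign in the 4 blocks.

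A lean KsJ and a db/db array of 16 weeks, of another array design and deposited in a separate table, entered none of these fits. Their acinar list means were 11.95 and 10.84 and their enterocyte list means 4.14 and 8.71. Their difference had the sign of the 16-array result in 937 of 1037 risen genes (90.4%) and 433 of 556 fallen genes (77.9%), against 65.7% and 52.0% of all tested genes above and below 0. With 1 array a group there is no test. The risen and fallen genes were picked for a difference that held in all 4 blocks and the background was not, so these shares are unlike. Replicate 2 of the same 2 groups had a like makeup, with an acinar mean of 12.17 in lean and an enterocyte mean of 8.30 in db/db islets. No ob/ob islets are in the pair, so it does not show whether an effect is shared with them. The pair gave 4.60 for Aldh1a3, 5.39 for Serpina7, 3.47 for Dapl1 and 1.76 for Kdelr3, and -1.24 for Slc2a2 and -3.11 for Cox6a2. It gave 6.43 for Gm2663. Some genes went the other way there, such as Aass at -0.17, Nfil3 at -0.50 and Cdkn2a at -0.75.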

How the data were processed

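The measured values were log2 signals per transcript cluster, used as deposited by the authors. MAS5, RMA and Partek are named in the submitters' processing notes, without their order or role. Of 41034 clusters per array, 23521 had 1 gene in the platform annotation, 1814 several and 15699 none. For a gene with several clusters the brightest on average was kept, and genes whose mean lay under the 30th percentile (2.99) were left out. limma 3.58.1 in R 4.3.3 fitted 4 block means and 1 obesity term with eBayes, two-sided, with Benjamini-Hochberg adjustment over 15526 genes. A moderated F-test with 3 degrees of freedom compared the effect between blocks. The code was tested on simulated data. Of 532 genes on the lists, 48 lacked a cluster to themselves. Named genes were, without predicted genes, the 12 largest changes and 5 smallest p-values each way, up to 4 called members per list, a set of islet and control genes, and the 2 called genes each side of the sign rule nearest 0. Further list members, and the 2 predicted genes, were named after their values were seen. Members and lists were chosen with earlier results of these data known. Nothing in the labels tells separate animals from pools, so p-values reflect the spread among these arrays alone, and their small number limits the precision. Alternatives were other filters, normalizations, variance models, covariates, and fits without single arrays or blocks. Figures used matplotlib 3.10.9 in Python 3.11.15.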

Additional observations from a re-analysis of the deposited data

Results flagged for a closer look

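The mean of each gene list was checked for an array far from the others, among the 8 obese and among the 8 lean arrays. Each such set pools 4 labelled groups. Of 62 sets checked, 12 held such an array. The rule flags about 1 in 20 sets of independent samples of 1 group by chance. That rate does not carry over to pooled sets whose lists share the same arrays, and 7 of the 12 are 1 array.

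Lean 6J replicate 2 of 6 weeks stood above the other lean arrays in 7 lists. Its enterocyte mean was 10.11 (3.68 to 5.52 on the others) and its goblet mean 8.88 (3.90 to 5.59), both lists of intestinal cells. Its ChREBP list mean was 9.15 (7.97 to 8.47), its antioxidant mean 8.23 (7.46 to 7.75) and its glycolysis and hypoxia mean 7.705 (7.12 to 7.39). Its lipid list mean was 6.97 (6.10 to 6.43) and its serotonin list mean 5.24 (4.28 to 4.57).

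Lean KsJ replicate 2 of 16 weeks stood below the other lean arrays in the secretory granule list, at 9.39 (10.16 to 10.40 on the others), and in the beta-cell identity list, at 9.17 (9.81 to 10.24). The db/db replicate 2 of 16 weeks stood above the other obese arrays in the enterocyte list, at 8.30 (3.81 to 5.84), and in the adipocyte list, at 4.19 (3.66 to 3.88). The db/db replicate 1 of 6 weeks had a lymphocyte mean of 5.06 (2.93 to 3.46).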

How the results depend on the processing

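Of the 89 named genes that were called, 22 had a limma adjusted p below 0.05 in every alternative that tested them, at most 34. In all 16 fits that left out 1 array, 68 did. These counts applied neither the sign rule nor the least log2 change of 0.5. The sign of the 89 genes was fixed by the rule of 1 sign in all blocks and is no measure of stability. Leaving out 1 array gave 542 to 1642 genes called higher, 223 to 1316 called lower and 0 to 1970 whose effect differed between blocks. Leaving out a block gave 423 higher and 130 lower calls without 6-week KsJ, 1416 lower without 16-week KsJ, 343 lower without 6-week 6J, and 57 higher and 9 lower without 16-week 6J. Quantile normalization gave 912 lower calls, array weights gave 1833 higher and 1263 lower, a least log2 change of 0.5 gave 652 and 323, and leaving out 3 arrays with strong acinar or enterocyte signal gave 1465 lower. The count of genes whose effect differed between blocks was 2 when genes under the 50th percentile were left out, 1 with no moderation of variances and 8 without those 3 arrays. The cause of these shifts was not tested.

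Some genes that were not called turned sign. Ctrc gave 0.0016 with quantile normalization, 0.30 with array weights, 0.011 with Xist as a covariate, 0.089 without the 3 arrays, 0.28 without 6-week KsJ, 0.15 without 16-week KsJ and -0.30 to 0.37 with 1 array left out. Lepr gave -0.011 with quantile normalization, -0.24 with array weights and without 16-week KsJ, -0.22 without the 3 arrays and -0.15 to 0.13 with 1 array left out. Sis, an enterocyte gene, gave 0.22 with array weights, 0.67 without the 3 arrays, 0.79 with both tables joined, 1.37 without 6-week 6J and -0.68 to 1.10 with 1 array left out. Xist gave -0.60 without 6-week KsJ, -0.70 without 16-week KsJ and -0.64 to 1.02 with 1 array left out. Without 16-week KsJ, Col1a1 gave -0.27 (-0.032 with array weights), Cd36 -0.39, Cd68 -0.12 and Uty 0.37 (-1.14 to 0.29 with 1 array left out), and without 16-week 6J, Sst gave 0.019.

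No paired analysis was possible because the labels give no replicate number that ties an obese array to a lean one. With 2 arrays a group, small effects and differences between blocks are measured with little precision, and dim genes near the brightness cutoff least of all.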
